A study of Mus musculus with 24 samples.

Results

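The genes described here are 10 genes of inflammation in fat: the cytokines Tnf, Il1b, Il6, Il18 and Csf1, the IL-1 receptor antagonist Il1rn, the IL-10 receptor chain Il10ra, the inflammasome genes Nlrp3 and Casp1, and the transglutaminase Tgm2. They were picked by gene name, with earlier results of these data known, and are 10 of the 54532 genes of the deposited table. RNA sequencing was done on inguinal (iWAT) and epididymal (eWAT) white fat, both taken from C57BL6 mice. Every mouse carried an AAV vector (adeno-associated virus), encoding either irisin, a hormone cut from the Fndc5 protein, or the control protein GFP. The diet was chow or HFD, a high-fat diet, over 18 weeks. The 8 combinations are iWAT GFP chow, iWAT GFP HFD, iWAT irisin chow, iWAT irisin HFD and the same 4 in eWAT, with 3 libraries in each and 24 in all. No group went without a vector. Neither its promoter, the age of the mice nor whether 3 libraries came from 3 mice is given in the sources used here. The spread behind each p-value is thus that between libraries, which may be technical. Whether iWAT and eWAT libraries of the same number came from the same mouse is not given either. The depot tests treated all libraries as independent.

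TNF, IL-1β and IL-6 are the classical inflammatory cytokines of obese fat, where macrophages are a main source of TNF and IL-1β. IL-1β and IL-18 are made as precursors and released after caspase-1 (Casp1) cuts them. Caspase-1 is itself switched on by inflammasomes, protein complexes built around a sensor such as NLRP3. The Il1rn protein occupies the IL-1 receptor without signalling, IL-10 bound to the receptor chain of Il10ra restrains macrophages, and M-CSF, the product of Csf1, keeps macrophages alive. Tissue transglutaminase (Tgm2) cross-links proteins and is abundant in macrophages and blood vessels.

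Levels are FPKM, fragments per kilobase of gene scaled to sequencing depth, so they can be compared between genes. Recovered gene reads ranged from 14145644 to 19726771 per library. Fndc5 was between 0.131 and 3.22 FPKM in the GFP libraries and between 0.392 and 4.94 FPKM in the irisin libraries, and the vectors overlapped in iWAT on chow and in eWAT on HFD. They did not overlap in iWAT on HFD (0.163 to 0.258 FPKM in GFP and 0.392 to 3.91 FPKM in irisin libraries) or, narrowly, in eWAT on chow (0.131 to 0.454 FPKM and 0.456 to 1.40 FPKM). Some libraries held much RNA of other cells. Summed B cell markers were 1774 FPKM in library 1 of iWAT GFP HFD (639 and 669 in the others of its group) and 2474 FPKM in library 1 of eWAT GFP chow (722 and 421). Summed T and NK cell markers were also highest of their groups in these libraries, at 191 FPKM (25.1 and 20.2) and 38.1 FPKM (14.7 and 15.2). The latter sum was exceeded in library 3 of eWAT GFP HFD, at 44.5 FPKM (24.9 and 18.4), and in library 1 of iWAT GFP chow, at 39.1 FPKM (31.3 and 23.1). Neutrophil markers summed to 54.5 FPKM in library 1 of iWAT GFP HFD (25.8 and 9.21). Summed skeletal muscle markers were 4172 FPKM in library 3 of iWAT irisin chow (85.4 and 291 in the others). Library 3 of eWAT GFP HFD held 4853 FPKM of epididymis markers, which were at 0 in the other libraries of its group. Adipocyte markers were high in every library, between 4418 and 12316 FPKM in sum.

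Of the 10 genes, 8 passed the filter of 0.5 FPKM in 3 libraries and were tested in each comparison, while Il1b and Il6 did not. In eWAT Il1rn passed only through its HFD libraries (at least 1.66 FPKM), as its chow libraries were at most 0.478 FPKM. Tnf passed there mostly through HFD libraries. In iWAT Nlrp3 passed only through chow libraries, as its HFD libraries were at most 0.445 FPKM. The diet divided the tested genes. In eWAT of HFD-fed GFP mice Il1rn, Casp1 and Il10ra rose while Il18 and Csf1 fell, and in eWAT of HFD-fed irisin mice Il1rn, Casp1 and Tgm2 rose while Il18 and Csf1 fell. In iWAT only Il18 and Csf1 of irisin mice were called, both lower on HFD. None of the 8 tested genes was called between irisin and GFP in any of the 4 comparisons (limma, adjusted p of at least 0.545).

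The 250 bases upstream of the RefSeq start site (build GRCm38.p6) are shown for the 4 genes called in eWAT under both vectors. They are also shown for Tnf, which was tested and not called, and for Il6, which was not tested. Capitals mark matches, on either strand, to the 10-base NF-kB consensus, to the AP-1 motif TGANTCA or to the TATA box TATAAA. NF-kB and AP-1 are transcription factors switched on by inflammatory signals, and the TATA box positions the start of transcription. The windows are chr2:24336610-24336859 (+ strand) for the most upstream of 3 starts of Il1rn, chr9:5298267-5298516 (+) for Casp1, chr9:50554450-50554699 (+) for Il18, chr3:107760470-107760719 (-) for Csf1, chr17:35202008-35202257 (-) for Tnf and chr5:30012864-30013113 (+) for Il6.
Il1rn: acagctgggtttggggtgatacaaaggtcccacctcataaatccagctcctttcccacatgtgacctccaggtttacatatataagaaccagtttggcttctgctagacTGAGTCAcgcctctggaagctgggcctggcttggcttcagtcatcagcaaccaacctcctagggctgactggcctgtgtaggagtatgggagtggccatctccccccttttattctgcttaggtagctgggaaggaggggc
Casp1: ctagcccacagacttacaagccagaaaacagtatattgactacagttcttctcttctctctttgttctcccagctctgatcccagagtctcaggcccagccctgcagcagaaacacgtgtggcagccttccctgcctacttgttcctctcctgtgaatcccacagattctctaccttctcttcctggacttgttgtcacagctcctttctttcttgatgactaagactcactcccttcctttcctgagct
Il18: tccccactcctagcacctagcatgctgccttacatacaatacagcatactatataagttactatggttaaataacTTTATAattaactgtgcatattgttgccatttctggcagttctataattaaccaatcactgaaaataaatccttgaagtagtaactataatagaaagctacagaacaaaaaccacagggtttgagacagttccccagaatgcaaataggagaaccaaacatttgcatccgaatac
Csf1: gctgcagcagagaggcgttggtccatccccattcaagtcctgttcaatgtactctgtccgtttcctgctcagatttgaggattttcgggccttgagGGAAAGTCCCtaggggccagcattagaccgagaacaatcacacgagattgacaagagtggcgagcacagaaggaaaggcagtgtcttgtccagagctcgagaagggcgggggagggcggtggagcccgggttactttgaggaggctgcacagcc
Tnf: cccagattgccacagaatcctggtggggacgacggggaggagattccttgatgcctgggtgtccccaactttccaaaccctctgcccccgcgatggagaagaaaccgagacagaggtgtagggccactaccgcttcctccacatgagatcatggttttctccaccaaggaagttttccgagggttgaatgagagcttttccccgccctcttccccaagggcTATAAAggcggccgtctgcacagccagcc
Il6: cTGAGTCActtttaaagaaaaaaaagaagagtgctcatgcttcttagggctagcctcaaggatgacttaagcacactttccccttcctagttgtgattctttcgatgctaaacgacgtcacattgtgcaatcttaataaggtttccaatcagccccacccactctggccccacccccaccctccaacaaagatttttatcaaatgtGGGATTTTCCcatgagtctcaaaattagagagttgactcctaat

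The 6 windows differ in what they hold. Counting the base before the start as -1, the Il1rn window holds an AP-1 match at -141 to -135. The Csf1 window holds an NF-kB match on the minus strand at -154 to -145. The Il6 window holds both, NF-kB at -44 to -35 and AP-1 at -249 to -243, and the Tnf window a TATA box at -29 to -24. In the Il18 window the TATAAA letters lie on the minus strand at -175 to -170, and the Casp1 window holds none of the 3 motifs. Among the 32851 windows of the same length in the RefSeq table, 7.25% held the NF-kB consensus, 6.75% the AP-1 motif and 12.4% TATAAA. Of the windows not printed, that of Il1b held TATAAA at -31 to -26 and the first of Nlrp3 an NF-kB match at -186 to -177. The later windows of Il1rn, with start sites 8438 and 8518 bases past the gene start, held none of the 3 motifs. Nor did the later window of Nlrp3. These matches are letters in a window, and binding was not measured.

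**Figure D1:**
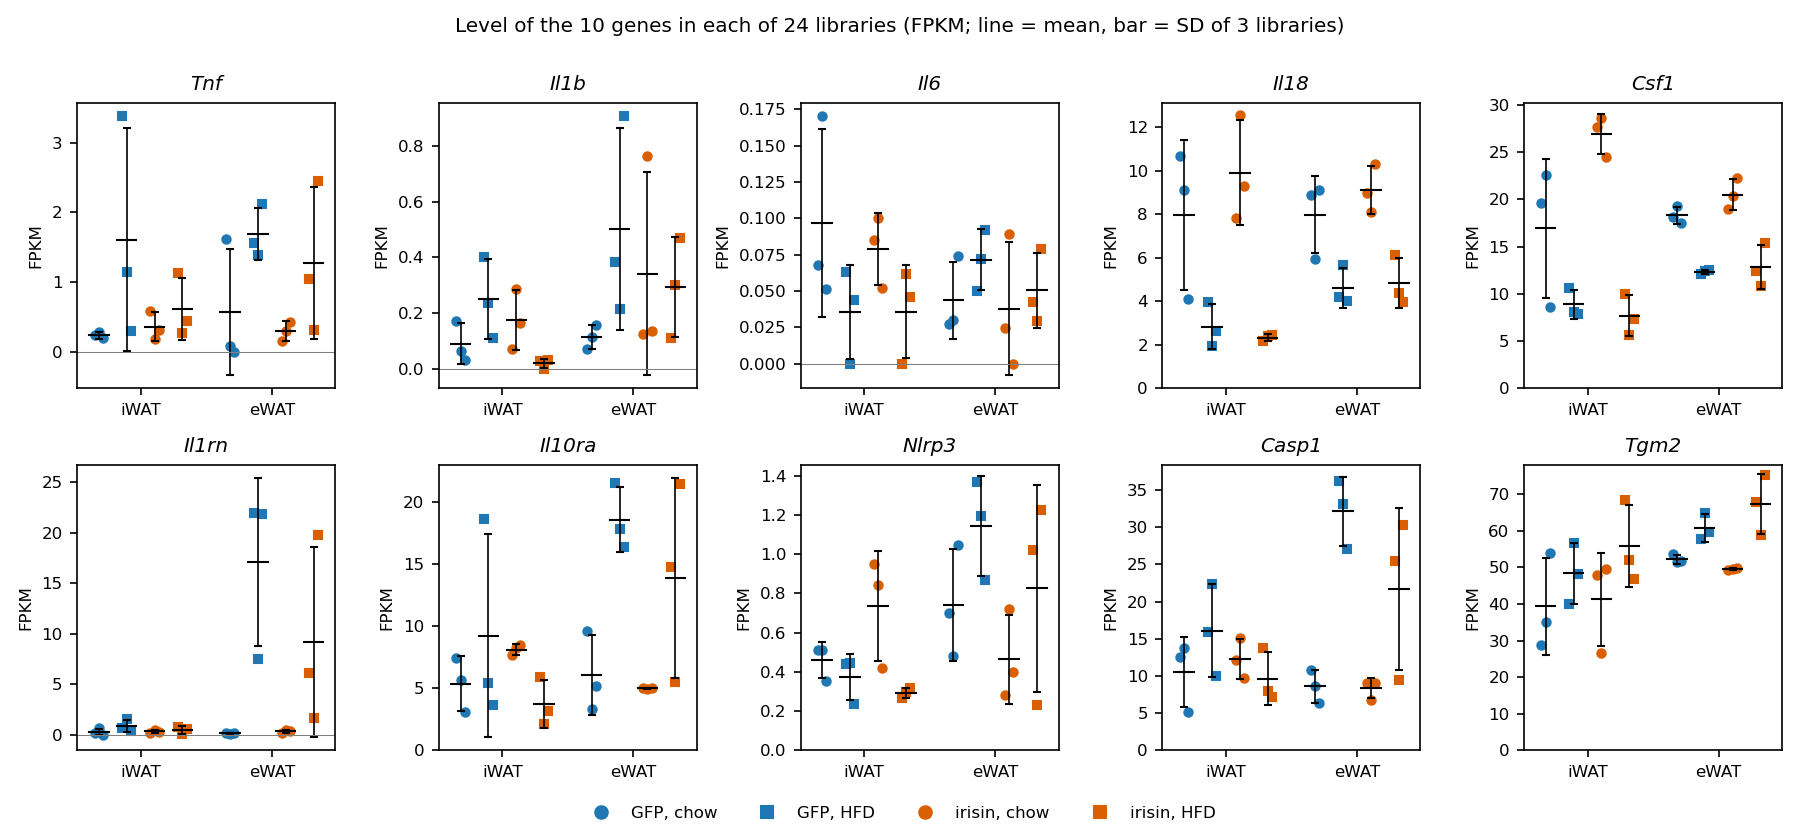
Level of each of the 10 genes in FPKM (vertical axis, one scale per gene) in the 8 groups, with a point for each library, a line at the mean and a bar for the SD of 3 libraries; GFP is blue, irisin orange, chow a circle and HFD a square. Il1rn was between 1.66 and 22.0 FPKM in the 6 eWAT libraries on HFD and at most 1.58 FPKM in the other 18, while Il18 and Csf1 had lower means on HFD than on chow in both depots.

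The genes covered a wide range of levels. Averaged over the 24 libraries, Tgm2 (51.8 FPKM), Csf1 (15.6 FPKM), Casp1 (14.9 FPKM), Il10ra (8.76 FPKM) and Il18 (6.204 FPKM) were the most abundant. Il1rn averaged 3.60 FPKM, Tnf 0.829 FPKM and Nlrp3 0.630 FPKM. Il1b (0.223 FPKM) and Il6 (0.0563 FPKM) were the lowest. The lead cytokine messages of the set were thus scarce in whole fat, and those of the M-CSF ligand and the transglutaminase were not.

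Tnf (17:35199381-35202007) encodes tumour necrosis factor. Its level in eWAT was 1.61, 0.0880 and 0 FPKM in the GFP chow libraries and 1.56, 1.39 and 2.12 FPKM in the GFP HFD libraries. The library at 0 had no read, where 3 reads would be 0.109 FPKM. The 3 HFD libraries were alike, while the chow group was spread by library 1, which was also the library rich in B cell RNA (Cd79a 43.6 FPKM, against 3.07 and 6.86 FPKM). The difference was 1.35 ± 0.55 on the log2(FPKM + 0.5) scale (± SE, HFD minus chow) and was not called (limma with Benjamini-Hochberg adjustment, adjusted p = 0.0926). Without library 1 of GFP chow it was called, at 2.0 (limma, adjusted p = 0.0123). In irisin mice eWAT held 0.146, 0.296 and 0.433 FPKM on chow and 1.04, 0.307 and 2.45 FPKM on HFD, and the groups overlapped (0.98 ± 0.55, limma, adjusted p = 0.240).

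In iWAT Tnf was 0.234, 0.289 and 0.190 FPKM in GFP chow and 3.38, 1.14 and 0.292 FPKM in GFP HFD. The highest of the 24 values was again in a library rich in B cell RNA, library 1 of GFP HFD, with Cd79a at 145 FPKM against 0.487 and 5.19 FPKM. The difference was 1.22 ± 0.49 (limma, adjusted p = 0.203), and 0.63 without that library (limma, adjusted p = 0.385). That library was also the highest of its group in T and NK cell markers (191 FPKM in sum, against 25.1 and 20.2 FPKM). The part of B, T and NK cell RNA in these values was not tested. The iWAT irisin libraries held 0.586, 0.186 and 0.308 FPKM on chow and 1.12, 0.274 and 0.442 FPKM on HFD. Neighbours in the order of the 8 group means of Tnf all overlapped, from 1.69 ± 0.38 FPKM (SD, n = 3) in eWAT GFP HFD down to 0.238 ± 0.050 FPKM in iWAT GFP chow.

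Il1b (2:129364570-129371139), the gene of IL-1β, had 174 reads in all 24 libraries together and at most 31 in any of them. In eWAT it was 0.0692, 0.113 and 0.157 FPKM in GFP chow and 0.383, 0.215 and 0.909 FPKM in GFP HFD. Those HFD libraries lay above the chow libraries. In irisin mice the eWAT values were 0.126, 0.764 and 0.135 FPKM on chow and 0.109, 0.301 and 0.468 FPKM on HFD, with no separation. The lowest group was iWAT irisin HFD at 0.0284, 0 and 0.0292 FPKM, below the iWAT GFP HFD libraries (0.400, 0.237 and 0.112 FPKM). At these depths such differences rest on few reads, and Il1b did not enter the test. Part of the gene is overlapped by the antisense gene Il1bos, at most 0.104 FPKM, whose reads cannot be told apart without strand information.

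Il6 (5:30013114-30019981) was close to the limit of detection. It had 55 reads in all libraries together, 0 to 7 per library, and none in 3 libraries, where 3 reads would be 0.0669 to 0.0796 FPKM. Its highest value was 0.171 FPKM. A difference between groups was not detectable at this depth.

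Il18 (9:50554827-50581840) encodes a cytokine of the IL-1 family. In iWAT of irisin mice it was 7.86, 12.6 and 9.32 FPKM on chow and 2.15, 2.40 and 2.43 FPKM on HFD. Every HFD library lay far below every chow library, and Il18 fell by 1.86 ± 0.32 on the log2 scale (limma, adjusted p = 0.00952). Macrophage markers were also lower there on HFD (sums of 801, 289 and 518 FPKM against 1474, 2050 and 1436 FPKM, 2 of 12 called lower). Fibroblast and progenitor markers were lower too, with sums of 1009, 465 and 652 FPKM on HFD against 2095, 2648 and 1569 FPKM on chow, a median of -1.74 and 3 of 8 called (Pdgfra, Ly6a and Dcn). Skeletal muscle markers, highest in library 3 of irisin chow, had 7 of 9 called lower. The muscle gene Ckm was 4.83, 17.2 and 279 FPKM in the irisin chow libraries and 0, 0.0257 and 1.15 FPKM in the irisin HFD libraries. Leaving out library 3 of irisin chow thus did not remove all muscle RNA from that group. The part of these markers in the fall was not tested. In iWAT of GFP mice Il18 was 10.7, 9.12 and 4.10 FPKM on chow and 3.95, 1.94 and 2.63 FPKM on HFD. The groups again did not overlap, but library 3 of GFP chow lay close to the HFD values, and the difference of -1.29 ± 0.32 was not called (limma, adjusted p = 0.0650). It was called without library 3 of GFP chow (-1.68, limma, adjusted p = 0.0144) or without library 1 of GFP HFD (-1.52, limma, adjusted p = 0.0471).

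In eWAT Il18 also fell on HFD. The GFP libraries held 8.89, 5.95 and 9.11 FPKM on chow and 4.19, 5.67 and 4.01 FPKM on HFD, a fall of 0.72 ± 0.20 (limma, adjusted p = 0.0244). The irisin libraries held 8.96, 8.12 and 10.3 FPKM on chow and 6.13, 4.39 and 3.96 FPKM on HFD, a fall of 0.87 ± 0.20 (limma, adjusted p = 0.0169). The groups did not overlap under either vector. The GFP call was lost without library 1 or 3 of GFP chow or library 1 or 3 of GFP HFD (limma, adjusted p = 0.0677 to 0.0849), and the irisin call without library 3 of irisin chow or of irisin HFD (limma, adjusted p = 0.0701 and 0.0525). Tex12 and Bco2 overlap Il18 on the other strand, at most 0.459 and 2.45 FPKM.

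Csf1 (3:107741048-107760469) encodes M-CSF. Its iWAT irisin libraries held 27.6, 28.6 and 24.5 FPKM on chow and 9.98, 5.69 and 7.37 FPKM on HFD, the widest diet difference of the gene, and it fell by 1.77 ± 0.31 (limma, adjusted p = 0.00985). The macrophage, fibroblast and muscle marker values of this comparison are those given for Il18. The iWAT GFP libraries held 19.6, 22.5 and 8.63 FPKM on chow and 10.6, 8.07 and 7.92 FPKM on HFD. These overlapped through library 3 of chow (-0.80 ± 0.31, limma, adjusted p = 0.195), and without it the difference was -1.21 (limma, adjusted p = 0.0209). That library was also low in macrophage RNA, with a marker sum of 254 FPKM against 1627 and 1580 FPKM in the others of its group. Its fibroblast and progenitor markers were low too, at 520 FPKM in sum against 1724 and 1620 FPKM.

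In eWAT the Csf1 libraries of each group were tight. GFP mice had 18.1, 19.3 and 17.5 FPKM on chow and 12.1, 12.4 and 12.5 FPKM on HFD, and Csf1 fell by 0.55 ± 0.12 (limma, adjusted p = 0.00896). Irisin mice had 19.0, 20.3 and 22.2 FPKM on chow and 12.4, 10.8 and 15.4 FPKM on HFD, a fall of 0.66 ± 0.12 (limma, adjusted p = 0.00725). Both calls held with each library left out in turn. The order of the 8 group means was the same for Csf1 and Il18, from iWAT irisin chow at the top to iWAT irisin HFD at the bottom. So the message of the macrophage growth factor was lower in the eWAT HFD groups, whose macrophage markers were higher: those markers summed to 1071 to 1494 FPKM in eWAT GFP chow and 4138 to 5476 FPKM in eWAT GFP HFD. The receptor gene Csf1r rose in the same comparison, from 45.6 ± 9.994 to 100.3 ± 7.3 FPKM (SD, n = 3; 1.15 ± 0.32 on the log2 scale, limma, adjusted p = 0.0235).

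Il1rn (2:24336853-24351494) had the widest diet difference of the set. In eWAT it was 0.167, 0.104 and 0.238 FPKM in GFP chow and 22.0, 7.48 and 21.9 FPKM in GFP HFD. The lowest HFD library was far above the highest chow library, and the means stood at 17.1 ± 8.34 and 0.170 ± 0.067 FPKM (SD, n = 3), a ratio of 101. Il1rn rose by 4.57 ± 0.66 on the log2(FPKM + 0.5) scale, which understates a change from so low a level (limma, adjusted p = 0.00141), and ranked 19th of 16274 genes by size of rise. Irisin mice had 0.206, 0.478 and 0.384 FPKM on chow and 6.12, 1.66 and 19.8 FPKM on HFD. Il1rn rose there too, by 2.96 ± 0.66 (limma, adjusted p = 0.0140), with HFD libraries that differed more among themselves than in GFP mice. Left without HFD library 2 the irisin value was 3.77, and without HFD library 3 it was 2.16, both still called (limma, adjusted p of at most 0.0476 with any library left out).

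In iWAT Il1rn stayed low. It was 0.208, 0.652 and 0.0337 FPKM in GFP chow, 0.690, 1.58 and 0.433 FPKM in GFP HFD, 0.236, 0.485 and 0.308 FPKM in irisin chow and 0.783, 0.0542 and 0.574 FPKM in irisin HFD. The diet groups overlapped under both vectors (GFP 0.80 ± 0.40, limma, adjusted p = 0.309; irisin 0.13 ± 0.40, limma, adjusted p = 0.868). In the order of the 8 group means of Il1rn, only the step from eWAT irisin HFD down to iWAT GFP HFD had libraries apart. The diet effect in GFP mice was larger in eWAT than in iWAT by 3.77 ± 0.81 (interaction in limma over all libraries, adjusted p = 0.0138; 4.31% of 17687 genes were called there and Il1rn was the only 1 of the 8 tested genes). That call was lost without the 4 libraries rich in B cell, muscle or epididymis RNA (3.45, limma, adjusted p = 0.0790) and in voom on the recovered reads (4.42, adjusted p = 0.252). In irisin mice the same difference was 2.84 ± 0.81 and none of the 8 genes was called, against 3.73% of all genes (limma, adjusted p = 0.0551 for Il1rn; 6 of the 8 and 3769 genes at an unadjusted p under 0.05, and 0 of the 8 called in voom). Il1rn was called there without library 3 of iWAT GFP chow, library 1 of iWAT GFP HFD, library 1 of iWAT irisin HFD or library 2 of eWAT irisin HFD (limma, adjusted p = 0.0022 to 0.0478). Without the last of these the value was 3.64 and 5 of the 8 were called.

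How far the messages of the antagonist and the agonist of the IL-1 receptor differed in level depended on the group. The mean of Il1rn was 1.499 times that of Il1b in eWAT GFP chow and 34.1 times that of Il1b in eWAT GFP HFD. In irisin mice the ratios in eWAT were 1.04 on chow and 31.4 on HFD. For iWAT the ratios were 3.34 in GFP chow, 3.62 in GFP HFD and 1.96 in irisin chow. The ratio in iWAT irisin HFD was 24.5, where Il1b had 2 reads in sum. With Il1b at so few reads the ratios are imprecise.

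Il10ra (9:45253837-45269149) encodes the ligand-binding chain of the IL-10 receptor. In eWAT it was 9.62, 3.34 and 5.23 FPKM in GFP chow and 21.5, 17.8 and 16.4 FPKM in GFP HFD. The groups were well apart, and Il10ra rose by 1.65 ± 0.43 (limma, adjusted p = 0.0176). The call was lost without library 2 or 3 of GFP chow or library 1 of GFP HFD (limma, adjusted p = 0.0521 to 0.0649). Irisin mice had 5.01, 4.97 and 5.05 FPKM on chow and 14.8, 5.48 and 21.5 FPKM on HFD. All HFD values were higher, but library 2 only slightly, and the difference of 1.197 ± 0.432 was not called (limma, adjusted p = 0.0795). Without that library it was 1.74 (limma, adjusted p = 0.00388). The diet effects under the vectors did not differ beyond error (interaction -0.45 ± 0.61, limma, adjusted p = 0.920). In iWAT the highest value of Il10ra, 18.6 FPKM, was in the B cell-rich library 1 of GFP HFD, with 5.45 and 3.64 FPKM beside it and 7.44, 5.66 and 3.07 FPKM in GFP chow. The iWAT difference was 0.48 ± 0.52 (limma, adjusted p = 0.657) and turned to -0.17 without that library (limma, adjusted p = 0.837). The iWAT irisin libraries held 7.67, 8.23 and 8.51 FPKM on chow and 5.92, 2.10 and 3.19 FPKM on HFD, apart but not called (-1.13 ± 0.52, limma, adjusted p = 0.184).

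Casp1 (9:5298517-5307265) encodes caspase-1. In eWAT it was 10.8, 8.67 and 6.31 FPKM in GFP chow and 36.2, 33.1 and 27.0 FPKM in GFP HFD. It rose by 1.86 ± 0.36 (limma, adjusted p = 0.00442), a ratio of means of 3.73, and the call held with each library left out in turn. Irisin mice had 9.10, 6.78 and 9.13 FPKM on chow and 25.4, 9.45 and 30.3 FPKM on HFD. Library 2 of irisin HFD lay just above the chow values, and the rise of 1.19 ± 0.36 was narrowly called (limma, adjusted p = 0.0445). It was 1.69 without that library (limma, adjusted p = 0.000495). The call was lost without library 2 of GFP chow, any library of GFP HFD or of irisin chow, or library 1 or 3 of irisin HFD (limma, adjusted p = 0.0567 to 0.148). In iWAT Casp1 was 12.6, 13.8 and 5.11 FPKM in GFP chow, 15.9, 22.4 and 9.996 FPKM in GFP HFD, 12.2, 15.1 and 9.71 FPKM in irisin chow and 13.7, 8.01 and 7.15 FPKM in irisin HFD. The diet groups overlapped under both vectors (limma, adjusted p = 0.401 and 0.565).

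Nlrp3 (11:59541568-59566956), the inflammasome sensor, was low and showed no called diet difference. In eWAT it was 0.699, 0.480 and 1.05 FPKM in GFP chow, 1.37, 1.20 and 0.869 FPKM in GFP HFD, 0.281, 0.719 and 0.397 FPKM in irisin chow and 1.02, 0.230 and 1.23 FPKM in irisin HFD. The diet differences were 0.42 ± 0.32 in GFP and 0.39 ± 0.32 in irisin mice (limma, adjusted p = 0.379 and 0.438). In iWAT of irisin mice it was 0.948, 0.841 and 0.421 FPKM on chow and 0.267, 0.296 and 0.316 FPKM on HFD, which did not overlap (-0.61 ± 0.22, limma, adjusted p = 0.106). The iWAT GFP libraries held 0.514, 0.510 and 0.352 FPKM on chow and 0.439, 0.445 and 0.236 FPKM on HFD. On HFD in GFP mice eWAT stood above iWAT by 0.91 ± 0.27 (limma, adjusted p = 0.0307). That call was lost without library 2 or 3 of iWAT GFP HFD or library 1 or 2 of eWAT GFP HFD (limma, adjusted p = 0.0527 to 0.125).

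Tgm2 (2:158116402-158146436) was the most abundant and the steadiest of the set, with a highest value only 2.84 times the lowest. In eWAT it was 53.7, 51.4 and 51.7 FPKM in GFP chow and 57.6, 64.9 and 59.7 FPKM in GFP HFD, apart but not called (0.21 ± 0.10, limma, adjusted p = 0.150). Irisin mice had 49.2, 49.6 and 49.8 FPKM on chow and 67.8, 58.9 and 75.3 FPKM on HFD. Tgm2 rose there by 0.43 ± 0.10 (limma, adjusted p = 0.0183), and the call was lost without any library of irisin chow or library 1 of irisin HFD (limma, adjusted p = 0.0557 to 0.0631). The diet effects under the vectors did not differ beyond error (0.22 ± 0.15, limma, adjusted p = 0.908). In iWAT it was 28.8, 35.1 and 54.0 FPKM in GFP chow, 40.1, 56.8 and 48.2 FPKM in GFP HFD, 47.8, 26.5 and 49.4 FPKM in irisin chow and 68.3, 52.0 and 46.8 FPKM in irisin HFD. The iWAT diet groups overlapped under both vectors (limma, adjusted p = 0.567 and 0.316). Rprd1b overlaps Tgm2 on the other strand, at most 5.89 FPKM.

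**Figure D2:**
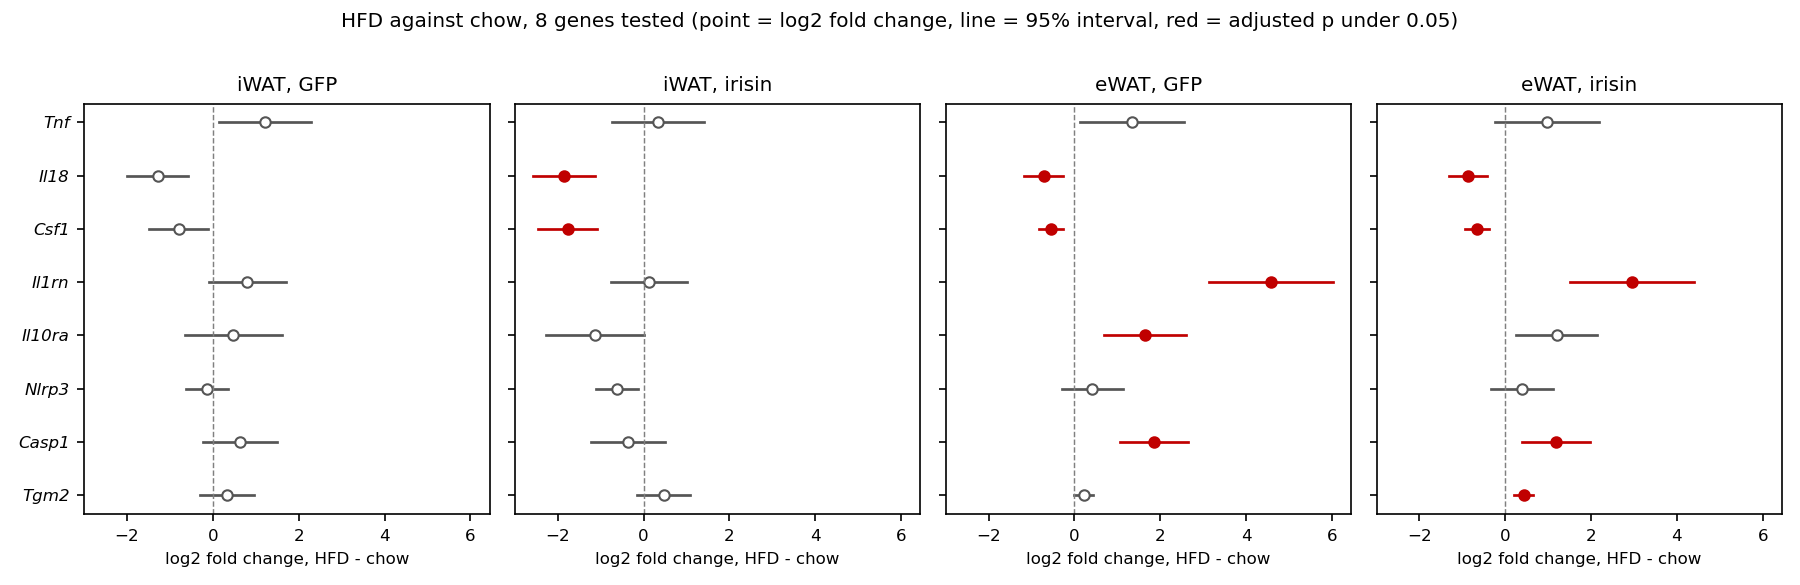
Diet effect on the 8 genes tested, as log2 fold change of HFD minus chow (horizontal axis, log2(FPKM + 0.5) scale) with its 95% interval, in each depot and vector; red points had a limma adjusted p under 0.05. Il1rn was at 4.57 in eWAT GFP and 2.96 in eWAT irisin, and Il18 and Csf1 were below 0 in all 4 panels.

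Counted together, 5 of the 8 tested genes were called in eWAT GFP mice, 3 higher and 2 lower, where 26.5% of all 16274 genes were called (14.7% higher and 11.8% lower). The median of the 8 was 0.88 on the log2 scale and that of all genes 0.00. The libraries of the 2 diets were apart for 6 of the 8, and for 44% of all genes. In eWAT irisin mice 5 were also called, 3 higher and 2 lower, against 17.4% of all genes (9.47% higher and 7.93% lower). The libraries were apart for 6 of the 8 and for 36.5% of all genes. The median of the 8 was 0.71 and that of all genes 0.00. Under both vectors Il1rn had entered the eWAT test through its HFD libraries alone. The count was 3 without library 3 of GFP chow or library 1 of GFP HFD. In irisin mice it was 2 without library 3 of irisin chow, 3 without library 1 or 2 of irisin chow or library 1 or 3 of irisin HFD, and 6 without library 2 of irisin HFD.

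In iWAT the counts were smaller. None of the 8 was called in GFP mice, where 2.37% of 16125 genes were called. Voom on the recovered reads called none either, and 3 genes of the set had an unadjusted p under 0.05 in limma (Csf1, Tnf and Il18) and 3 in voom. The libraries were apart for Tnf and Il18, 2 of the 8, and for 23.3% of all genes. With library 3 of GFP chow left out 2 were called (Il18 and Csf1), and with library 1 of GFP HFD left out 1 (Il18). In irisin mice 2 were called, both lower (Il18 and Csf1), against 9.01% of genes called, 4.82% higher and 4.19% lower. The libraries were apart for 4 of the 8 (Il18, Csf1, Nlrp3 and Il10ra, each lower on HFD) and for 37.1% of all genes. The median of the 8 was -0.49 and that of all genes -0.02.

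Between depots, none of the 8 was called in GFP mice on chow, where 4.63% of 17687 genes were called. At an unadjusted p under 0.05 limma gave 0 of the 8 and 2657 genes in all, and voom called 0 of the 8. On HFD all 8 had a positive difference of eWAT minus iWAT. The eWAT libraries lay above all iWAT libraries for 6 of them, as they did for 18% of all genes. Il1rn (3.59 ± 0.57, limma, adjusted p = 0.000371) and Nlrp3 were called, against 15.2% of all genes. The count was 4 without library 1 of iWAT GFP HFD and 1 without library 2 or 3 of iWAT GFP HFD or library 1 or 2 of eWAT GFP HFD.

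The rise of Il1rn, Casp1 and Il10ra in eWAT went with a rise of macrophage markers. Of the 12 macrophage markers, 11 were called higher on HFD in eWAT GFP mice (median 1.73) and 6 in irisin mice (median 1.23). Their sum in eWAT irisin HFD was 3699, 1264 and 3954 FPKM, lowest in library 2, the library that was also lowest of its group for Casp1, Il10ra and Il1rn, and it was 951 to 1074 FPKM in irisin chow. Among the 10 adipocyte markers 5 were called lower and Lep higher in eWAT GFP mice. In the same comparison 4 of 8 mesothelium markers were called lower (Wt1, Krt19, Upk3b and Msln; sums of 370 to 490 FPKM on chow and 99.6 to 133 FPKM on HFD). B cell marker sums were 2474, 722 and 421 FPKM on chow and 261 to 301 FPKM on HFD. In irisin mice 2 mesothelium markers were called lower (Wt1 and Krt19). Neutrophil markers summed to 4.46 to 54.5 FPKM over all libraries, with Ly6g at 0 in 7 of the 8 groups. In these bulk libraries fewer cells of a type and less RNA per cell cannot be told apart, and the part of cell composition in the results was not tested.

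**Figure D3:**
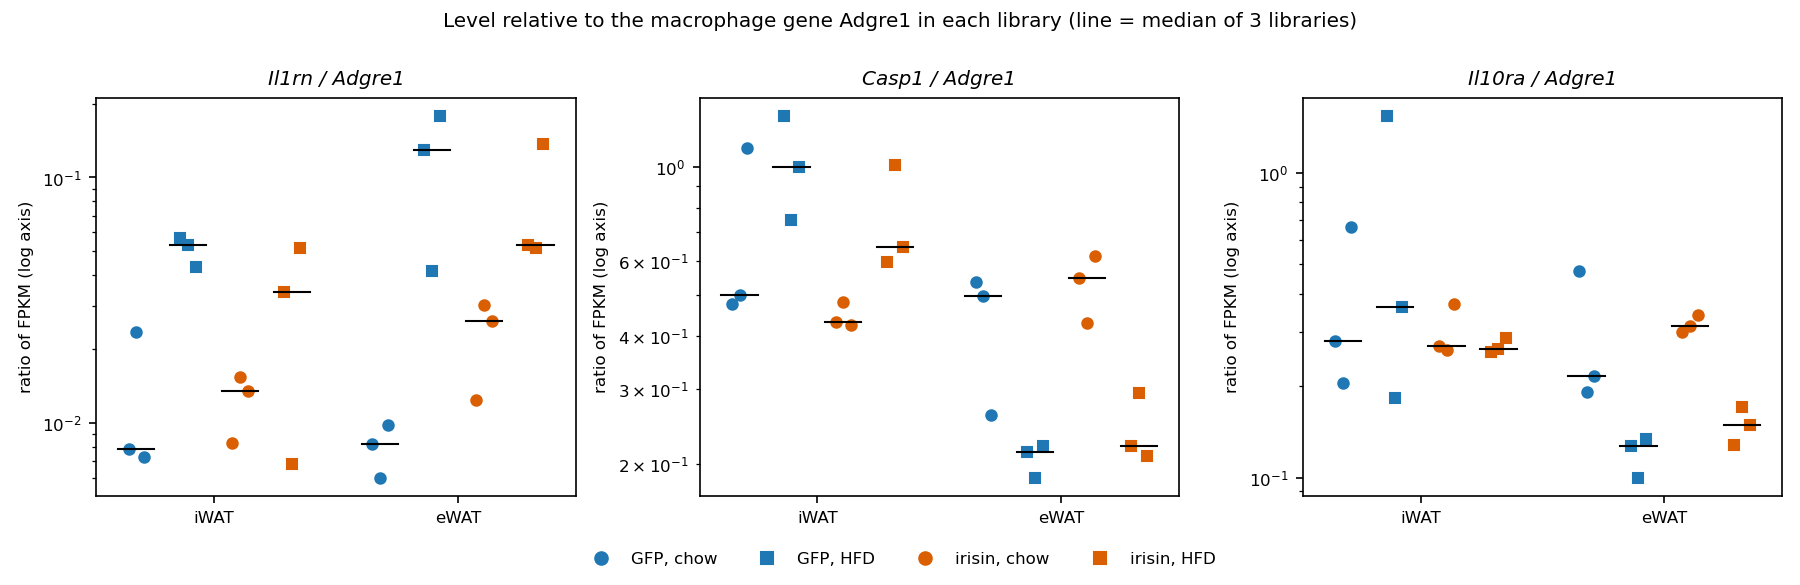
Ratio of the FPKM of Il1rn, Casp1 and Il10ra to that of Adgre1, a macrophage surface gene, on a log axis, with a point for each library and a line at the median of 3. In eWAT the Il1rn ratio was higher on HFD (0.0417 to 0.178 in GFP) than on chow (0.00596 to 0.00979 in GFP), while the Casp1 and Il10ra ratios were lower.

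Set against Adgre1, a surface gene of mature macrophages, the 3 genes parted. Adgre1 itself was 20.2, 17.5 and 24.3 FPKM in eWAT GFP chow and 169, 179 and 123 FPKM in eWAT GFP HFD. The ratio of Il1rn to Adgre1 in GFP mice was 0.00825, 0.00596 and 0.00979 on chow and 0.130, 0.0417 and 0.178 on HFD. In irisin mice it was 0.0124, 0.0303 and 0.0259 on chow and 0.0531, 0.0515 and 0.136 on HFD. In eWAT Il1rn was thus higher per Adgre1 in each HFD library than in the chow libraries of the same vector. The ratio of Casp1 to Adgre1 in GFP mice was 0.536, 0.496 and 0.260 on chow and 0.214, 0.185 and 0.220 on HFD. The ratio of Il10ra to Adgre1 was 0.475, 0.191 and 0.216 on chow and 0.127, 0.0994 and 0.134 on HFD. Both were lower on HFD without overlap, as they were in irisin mice. In library 2 of eWAT irisin HFD, with Adgre1 at 32.3 FPKM against 115 and 145 FPKM, the ratios of Casp1 (0.293) and Il10ra (0.170) were the highest of that group. In iWAT the ratio of Il1rn to Adgre1 was 0.00728 to 0.0235 in GFP chow and 0.0433 to 0.0569 in GFP HFD. In irisin mice it was 0.00833 to 0.0154 on chow and 0.0341, 0.00680 and 0.0519 on HFD, with library 2 below all chow libraries. The iWAT ratio of Casp1 to Adgre1 in irisin mice was 0.424 to 0.479 on chow and 0.598 to 1.01 on HFD, so it was higher on HFD, the opposite of eWAT. It overlapped in GFP mice (0.475 to 1.10 on chow and 0.7503 to 1.32 on HFD), and the ratio of Il10ra overlapped under both vectors. These ratios were chosen after the values were seen, hold for Adgre1 alone and carry no test. Other macrophage markers rose by a larger factor than Adgre1 in eWAT GFP mice. Itgax went from a mean of 1.61 to 88.1 FPKM and Trem2 from 3.63 to 91.1 FPKM. Csf1r, of the same marker list, rose by a smaller factor than Adgre1, Casp1 or Il10ra, from a mean of 45.6 to 100 FPKM. Ratios to these markers were not taken, so a rise of Il1rn beyond macrophage markers in general is not shown. Nor is a fall of Casp1 and Il10ra against macrophage markers in general, as their direction depends on the marker chosen.

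The vector comparisons ask how the set differed between mice given irisin and mice given GFP. On HFD in eWAT 5 of the 8 genes had a lower estimate in irisin than in GFP mice. The most negative was Il1rn at -1.26 ± 0.66, with a 95% interval of -2.71 to 0.18 (limma, adjusted p = 0.546), followed by Casp1 at -0.70 ± 0.36, interval -1.49 to 0.09 (limma, adjusted p = 0.545). Without library 2 of irisin HFD, the library lowest in macrophage markers, these were -0.46 and -0.20. Il18 (0.05, interval -0.40 to 0.50), Csf1 (0.04, interval -0.23 to 0.32) and Tgm2 (0.14, interval -0.08 to 0.37) had narrower intervals. The libraries overlapped for all 8, and were apart for 13.4% of all genes.

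On HFD in iWAT 7 of the 8 estimates were below 0, the most negative Il10ra at -0.98 ± 0.52 (interval -2.12 to 0.16; limma, adjusted p = 0.946). It was -0.33 without the B cell-rich library 1 of GFP HFD. None of the 8 had libraries apart, as 6.34% of all genes had. On chow in iWAT all 8 were above 0, and 2 had libraries apart (Csf1 and Il10ra), as 16.3% of all genes had. The highest was Csf1 at 0.76 ± 0.31 (interval 0.07 to 1.44; limma, adjusted p = 0.919), with 24.5 to 28.6 FPKM in irisin mice above 8.63 to 22.5 FPKM in GFP mice. Without the low library 3 of GFP chow it was 0.35 (limma, adjusted p = 0.862). On chow in eWAT the estimates ran from -0.36 (Nlrp3) to 0.35 (Il1rn), with adjusted p of at least 0.950 in limma. The libraries were apart for Tgm2 alone, 49.2 to 49.8 FPKM in irisin and 51.4 to 53.7 FPKM in GFP mice, and for 10% of all genes.

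In none of these 4 comparisons was any gene of the table called by limma, so 0% of genes is the background. At an unadjusted p under 0.05 limma gave 1510 genes in eWAT on HFD, 845 in eWAT on chow, 431 in iWAT on HFD and 688 in iWAT on chow. Among the 8 genes of the set that count was 0, 0, 0 and 1 (Csf1), and voom also called 0 genes in each. For none of the 8 was a difference of the diet effect between the vectors called, by the interaction in limma. This held in iWAT (0 genes called and 996 at an unadjusted p under 0.05) and in eWAT (1 gene called, 0.00614% of genes, and 658). Voom called 0 in both. The 95% intervals were wide, such as -3.21 to 0.001 for Il10ra in iWAT and -3.66 to 0.44 for Il1rn in eWAT. Csf1 was the only 1 of the 8 with an unadjusted p under 0.05 in iWAT, at -0.98 ± 0.44 (limma, adjusted p = 0.688), and there was none in eWAT.

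**Figure D4:**
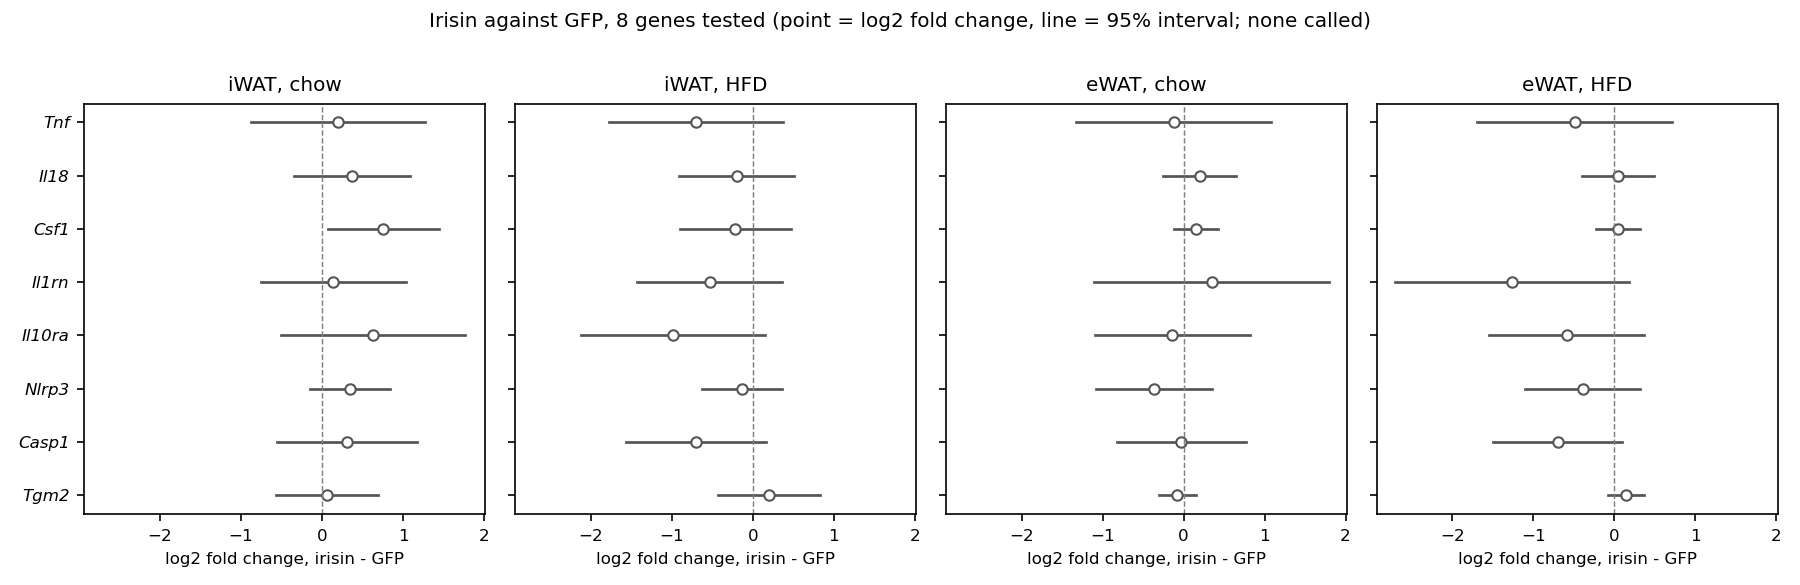
Vector effect on the 8 genes tested, as log2 fold change of irisin minus GFP (horizontal axis, log2(FPKM + 0.5) scale) with its 95% interval, in each depot and diet. No point was called, and the widest interval was that of Il1rn in eWAT, from -2.71 to 0.18 on HFD.

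Genes around the set were taken from lists of its pathways. The cell type markers given above moved in the same comparisons, and their part was not tested. These counts are to be read against the shares of all genes called, which were 26.5% in eWAT GFP, 17.4% in eWAT irisin, 2.37% in iWAT GFP and 9.01% in iWAT irisin mice. Of 12 inflammasome and pyroptosis genes, 8 were called higher on HFD in eWAT GFP mice and none lower, with a list median of 0.93. They included the ATP-gated channel P2rx7 (2.43 ± 0.46 to 9.39 ± 1.92 FPKM; 1.75 ± 0.32 on the log2 scale, limma, adjusted p = 0.00343). The sensors Nlrc4 (1.21 ± 0.25, limma, adjusted p = 0.00637), Nlrp1a (1.06 ± 0.22, limma, adjusted p = 0.00612) and Nlrp1b (1.10 ± 0.24, limma, adjusted p = 0.00826) also rose. These sensors were low: Nlrp1a went from a mean of 0.140 to 0.833 FPKM and Nlrp1b from 0.385 to 1.40 FPKM. Nlrc4 went from 0.753 to 2.39 FPKM. Nlrp1a, with chow means of 0.140 FPKM in GFP and 0.0736 FPKM in irisin mice, passed the filter only through HFD libraries. Nlrp3 itself was not called (0.42 ± 0.32), at a similar level and with a larger error, so a difference between it and these sensors is not shown. In irisin mice Nlrp1a, Nlrp1b and Nlrc4 were called, all higher (3 of 12, median 0.66). In iWAT none of the 10 tested was called under either vector (smallest adjusted p in limma 0.0589, for Casp4 in irisin mice, -0.82 ± 0.24).

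Of 18 genes of TNF and NF-kB signalling, 3 were called in eWAT GFP mice, all higher: Adam17, the protease that frees TNF from the membrane (1.04 ± 0.26, limma, adjusted p = 0.0141), the TNF receptor Tnfrsf1b (17.3 ± 2.97 to 48.1 ± 9.20 FPKM; 1.44 ± 0.37, limma, adjusted p = 0.0164) and the kinase Ripk1 (0.52 ± 0.14, limma, adjusted p = 0.0209). A count of 3 of 18 is a smaller share than the 26.5% of all genes called there, so it is no result about the list. None of the 18 was called in eWAT irisin mice or in iWAT GFP mice. In iWAT irisin mice 1 was, Ikbkg, a subunit of the IkB kinase (0.95 ± 0.22, limma, adjusted p = 0.0260).

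For IL-1 and IL-18 signalling, in iWAT irisin mice 5 of 12 tested genes were called. The adaptor Myd88 fell by 0.99 ± 0.17 (limma, adjusted p = 0.00891), the receptor Il1r1 by 1.32 ± 0.25 (limma, adjusted p = 0.0124) and the inhibitory kinase Irak3 by 1.08 ± 0.21 (limma, adjusted p = 0.0127), Il1r2 was also lower, and Irak2 rose by 1.91 ± 0.21 (limma, adjusted p = 0.00218). Irak2 was the only 1 called in iWAT GFP mice (12.2 ± 2.72 to 26.2 ± 1.93 FPKM; 1.08 ± 0.21, limma, adjusted p = 0.0255). In eWAT GFP mice Tollip and Irak4 were called higher and the IL-18 receptor Il18r1 lower (-0.88 ± 0.28, limma, adjusted p = 0.0392), 3 of 12, a share near that of all genes. In eWAT irisin mice the IL-18 binding protein Il18bp fell by 0.75 ± 0.14 (limma, adjusted p = 0.00727) and Irak2 rose by 0.79 ± 0.18 (limma, adjusted p = 0.0159).

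In the IL-6 family list 4 of 10 tested genes fell in iWAT irisin mice: Il11ra1, Osmr, Stat3 and Socs3, the last by 2.03 ± 0.49 (8.87 ± 0.90 to 1.89 ± 0.80 FPKM, limma, adjusted p = 0.0305). Il11ra1 also fell in iWAT GFP mice, by 1.10 ± 0.20 (limma, adjusted p = 0.0233). In eWAT Jak1 was called higher under both vectors and Osm in irisin mice (1 and 2 of 11). In the IL-10 list the second receptor chain, Il10rb, rose in eWAT under both vectors (1.27 ± 0.22 in GFP, limma, adjusted p = 0.00262; 0.77 ± 0.22 in irisin, limma, adjusted p = 0.0346), 1 of 6 tested. In iWAT irisin mice 2 of the 6 fell, Socs3 and Stat3, which this list shares with the IL-6 list, and none was called in iWAT GFP mice.

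Among CSF receptors and ligands Csf2ra, Csf1r and Csf2rb were called higher in eWAT GFP mice (3 of 5 tested, median 1.15) and Csf2ra in irisin mice (1 of 5), and none in iWAT. Csf2ra went from 36.4 ± 13.4 to 139.8 ± 21.1 FPKM in GFP mice (1.97 ± 0.45, limma, adjusted p = 0.00921). Of the other transglutaminases only F13a1, the gene of the factor XIII A chain, and Tgm1 were tested. F13a1 fell in eWAT GFP mice by 1.69 ± 0.34 (38.3 ± 10.6 to 11.7 ± 3.97 FPKM, limma, adjusted p = 0.00557), and neither was called in the other 3 diet comparisons. No gene of these lists was called in a vector comparison.

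The members were also described by the genes most like them, by Pearson correlation of log2(FPKM + 0.5) over the 24 libraries among 11544 protein-coding genes whose mean reached 1 FPKM. The libraries form 8 groups, so that a correlation mostly carries group differences, and it is given as a description. For Il1rn the nearest were Psap (r = 0.99), Rhov (0.99) and Pld3 (0.99), and for Il10ra they were Arhgap9, Syk and Was (each 0.98). Psap encodes the precursor of lysosomal saposins, and Syk and Was encode signalling proteins of blood cells. For Casp1 the nearest were Naip2, an inflammasome receptor (0.95), Pik3ap1 (0.95) and Prcp (0.95). Il18 and Csf1 had the same nearest gene, Larp6, an RNA-binding protein of collagen messages (0.94 with each). They were followed by C1ra and Ppl (both 0.92) for Il18 and by Ifitm3 and Ccdc8 (both 0.93) for Csf1. Il18 and Csf1 were also the most alike pair within the set (0.90). For Tnf the nearest were Csk (0.95), Dbnl (0.94) and Dgkz (0.93), for Tgm2 Rrp1 (0.87), Ap3d1 (0.86) and Eif3b (0.85), and for Nlrp3 Ticam2 (0.85), Il1rl1 (0.85) and Gnpda1 (0.84). For the sparse Il1b (Dusp6, 0.73) and Il6 (Ccl12, 0.66) the highest values were lower.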

How the data were processed

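RNA was purified with poly-T beads, per the labels' protocols, and the submitters' processing notes name HISAT2 2.0.5 (an aligner) and featureCounts 1.5.0-p3 (a read counter). The genome build and strand setting are not given in the sources used here; all 10 positions equal those of GENCODE release M21 (GRCm38). The authors deposited FPKM values per gene, with a gene length column (the length of the gene model in bases, used to recover reads). FPKM times length gave whole reads for 100% of values within 0.01. Another 8 numeric columns were not used.

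In limma 3.58.1 (R 4.3.3), linear models with moderated, mean-dependent variances were fitted to log2(FPKM + 0.5) of genes that reached 0.5 FPKM in 3 or more fitted libraries, with the 12 libraries of a depot, or all 24, in 1 fit. Benjamini-Hochberg adjustment ran over all genes tested, and an adjusted p under 0.05 was a call, in 14 comparisons. With 3 against 3 libraries an exact permutation test cannot reach that level. The model was also run on simulated data with independent noise between libraries. These held no libraries rich in other tissues, and their outcome is not given here. Members and lists were chosen with earlier results of these data known. Named genes were the 10 members, per list up to 4 called genes, by smallest adjusted p, or otherwise 2 genes by smallest p, and the 3 genes most like each member; further genes were named after their values were seen. Alternatives were other pseudocounts, filters and scaling, a replicate block, voom on recovered reads, leaving out 4 libraries rich in other tissues and leaving out each library. Figures used matplotlib 3.10.9 in Python 3.11.15.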

Additional observations from a re-analysis of the deposited data

Results flagged for a closer look

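Il1rn stood out because its diet effect differed between the depots of GFP mice by a test of the difference itself. HFD minus chow was larger in eWAT than in iWAT by 3.77 ± 0.81 on the log2(FPKM + 0.5) scale (interaction in limma, adjusted p = 0.0138), and all 3 eWAT HFD libraries (7.48 to 22.0 FPKM) were above all 3 iWAT HFD libraries (0.433 to 1.58 FPKM). The value stayed between 3.47 and 4.27 with any library left out (limma, adjusted p of at most 0.0491). The call was lost in voom on the recovered reads (4.42, adjusted p = 0.252) and without the 4 libraries rich in B cell, muscle or epididymis RNA (3.45, limma, adjusted p = 0.0790). Macrophage markers summed to 4138 to 5476 FPKM in the eWAT HFD libraries and to 509 to 943 FPKM in the iWAT HFD libraries, and their part in the difference was not tested.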

How the results depend on the processing

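Of 112 estimates, 15 were called, and those 15 stayed called, where tested, with a pseudocount of 1 or 0.1, a filter of 1 FPKM or upper quartile scaling. Depth limited Il1b, Il6 and the low values of Tnf and Nlrp3. The rise of Il1rn in eWAT, of Casp1 in eWAT GFP mice, and the falls of Csf1 in eWAT and of Il18 and Csf1 in iWAT irisin mice were called under every alternative run. Lost calls were Il18 in eWAT GFP mice (-0.55, limma, adjusted p = 0.163) and Casp1 in eWAT irisin mice (1.19, adjusted p = 0.0562) without the 4 libraries, and Casp1 there (adjusted p = 0.0918) and Nlrp3 between depots on HFD (adjusted p = 0.0583) with no filter. Gained calls were Tnf in eWAT GFP mice in voom (3.54, adjusted p = 0.0408) and without the 4 libraries (1.86, adjusted p = 0.0376), and Il10ra between depots on HFD without the 4 libraries (2.02, adjusted p = 0.0178). In eWAT against iWAT on HFD 1 member was called with no filter. In the depot by diet interaction of GFP mice 0 were called in voom and 0 without the 4 libraries.

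Deviations of same-numbered libraries correlated at -0.26 to 0.32 in iWAT and -0.35 to 0.33 in eWAT. Between the depots of the same vector and diet the range was -0.17 to 0.36. Such values do not settle whether libraries shared a mouse. With a replicate block 4 members were called in eWAT against iWAT on HFD, 1 in the depot by diet interaction of irisin mice, and 0 genes in the eWAT vector by diet interaction.

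Counts of genes called without a filter were 161 for iWAT HFD against chow in GFP, 894 in irisin, 3 and 1 for iWAT irisin against GFP on HFD and chow, 2 and 3 for eWAT, 2 and 6 for the vector by diet interactions of iWAT and eWAT, and 506 and 254 for the depot by diet interactions of GFP and irisin. Without the 4 libraries they were 251 (iWAT HFD against chow, GFP), 2670 (eWAT, GFP), 1 and 1 (eWAT irisin against GFP), 0 (eWAT vector by diet), 272 and 390 (depot by diet, GFP and irisin). Voom called 4384 genes for eWAT HFD against chow in GFP mice (4310 in limma). It gave 0 for the eWAT vector by diet interaction and 491 and 367 for depot by diet. A pseudocount of 0.1 gave 1 and 1 for eWAT irisin against GFP, and a pseudocount of 1 gave 0 for the eWAT vector by diet interaction. With 1 library left out genes called ranged: iWAT HFD against chow, GFP 0 to 499, iWAT HFD against chow, irisin 266 to 2629, iWAT irisin against GFP, chow 0 to 7, eWAT HFD against chow, GFP 2643 to 5144, eWAT HFD against chow, irisin 1116 to 4165, eWAT irisin against GFP, HFD 0 to 5, eWAT irisin against GFP, chow 0 to 1, eWAT vector by diet interaction 0 to 2, eWAT against iWAT, GFP chow 472 to 975, eWAT against iWAT, GFP HFD 1363 to 3713, depot by diet interaction, GFP 268 to 1171, depot by diet interaction, irisin 62 to 2419. Members called ranged: iWAT HFD against chow, GFP 0 to 2, eWAT HFD against chow, GFP 3 to 5, eWAT HFD against chow, irisin 2 to 6, eWAT against iWAT, GFP HFD 1 to 4, depot by diet interaction, irisin 0 to 5. Without the 4 libraries rich in other tissues, uncalled estimates with changed sign were, in iWAT HFD against chow, GFP Il10ra -0.17, and in iWAT irisin against GFP, HFD Il18 0.0317, and in iWAT irisin against GFP, chow Tgm2 -0.0909, and in eWAT irisin against GFP, HFD Il18 -0.0365, and in eWAT irisin against GFP, chow Tnf 0.53, Casp1 0.15, Il10ra 0.23, and in eWAT against iWAT, GFP chow Tnf -0.44, Il18 -0.00816, Il10ra -0.25. In voom, uncalled estimates with changed sign were, in iWAT HFD against chow, irisin Il1rn -0.0155, and in eWAT irisin against GFP, chow Tnf 0.98, and in eWAT vector by diet interaction Nlrp3 0.026, and in eWAT against iWAT, GFP chow Tnf -0.79. With a pseudocount of 0.1, uncalled estimates with changed sign were, in eWAT irisin against GFP, chow Tnf 0.23, and in eWAT against iWAT, GFP chow Tnf -0.076. With 1 library left out, these uncalled estimates changed sign: in iWAT HFD against chow, GFP Il10ra -0.17 to 0.93. In iWAT HFD against chow, irisin Il1rn -0.12 to 0.49. In iWAT irisin against GFP, HFD Il18 -0.40 to 0.0317. In iWAT irisin against GFP, chow Il1rn -0.11 to 0.44, Il18 -0.0196 to 0.62, Tgm2 -0.13 to 0.35, Casp1 -0.12 to 0.56. In iWAT vector by diet interaction Tgm2 -0.15 to 0.33. In eWAT irisin against GFP, HFD Il18 -0.12 to 0.19, Csf1 -0.0879 to 0.16. In eWAT irisin against GFP, chow Tnf -0.51 to 0.53, Casp1 -0.22 to 0.15, Il10ra -0.47 to 0.23. In eWAT vector by diet interaction Tnf -1.02 to 0.10, Il18 -0.32 to 0.0345, Csf1 -0.24 to 0.000927, Nlrp3 -0.27 to 0.35, Il10ra -0.85 to 0.0882. In eWAT against iWAT, GFP chow Tnf -0.44 to 0.60, Il1rn -0.44 to 0.12, Il18 -0.31 to 0.33, Csf1 -0.19 to 0.47, Casp1 -0.62 to 0.0562, Il10ra -0.25 to 0.45. In eWAT against iWAT, GFP HFD Tnf -0.22 to 0.93. In depot by diet interaction, GFP Tnf -0.43 to 0.78, Csf1 -0.00554 to 0.66, Tgm2 -0.37 to 0.0779. In depot by diet interaction, irisin Tgm2 -0.19 to 0.26. The cause of these changes was not tested.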
